A study of Mus musculus with 30 samples.

Results

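Endothelial identity and activation genes were examined in the extensor digitorum longus (EDL), a fast hindlimb muscle, of SJL mice. The 10 genes were taken by symbol from the 21073 genes of the expression table, and all 10 were found: PECAM1, CDH5, TEK, KDR, FLT1 and VWF, which mark or act in endothelial cells, the growth factor VEGFA, and the adhesion genes SELP, ICAM1 and VCAM1. All animals were female wild-type SJL mice, and their age is not given in the sources used here. Unimmunized (Ctrl) mice received no immunization, OVA-immunized mice received ovalbumin in complete Freund's adjuvant (CFA), and EAE-induced mice received the myelin peptide [Ser140]-PLP139-151 in CFA without pertussis toxin. Experimental autoimmune encephalomyelitis (EAE) is a model of multiple sclerosis. OVA-immunized and EAE-induced mice thus share the adjuvant, and differ in the antigen, in its dose and in the disease. EDL was taken on day 14, at the peak of disease, or on day 40, in the second remission, from 5 mice a group and day, 30 different mice in all.

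Endothelial cells line the capillaries that run along muscle fibres. PECAM1 and CDH5 (VE-cadherin) hold neighbouring endothelial cells together, TEK (TIE2) is the receptor of the angiopoietins, and VWF is the clotting factor carrier that endothelial cells and platelets store. VEGFA, which muscle fibres themselves make, acts on the endothelium through KDR (VEGFR2), the main signalling receptor, and FLT1 (VEGFR1), which binds VEGFA tightly and limits its action. In inflammation the endothelium displays SELP (P-selectin), on which leukocytes roll, and ICAM1 and VCAM1, to which leukocyte integrins bind for firm arrest.

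Of the 10 genes, 6 had a promoter in the RefSeq table of the GRCm38.p6 assembly, the assembly that mm10 denotes, with 7 windows in all of 300 bases each (250 before and 50 after the start). PECAM1, CDH5, VWF and VCAM1 had none there. The promoters of SELP and ICAM1 are shown because these adhesion genes differed in their response, those of KDR and FLT1 because these receptors of 1 ligand parted, and both windows of VEGFA because it is their ligand. Capitals mark matches, on either strand, to the NF-κB consensus, the ETS core AGGAAG, the hypoxia core ACGTG or GCGTG, and the TATA box TATAAA.

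SELP (chr1:164115014-164115313, plus strand): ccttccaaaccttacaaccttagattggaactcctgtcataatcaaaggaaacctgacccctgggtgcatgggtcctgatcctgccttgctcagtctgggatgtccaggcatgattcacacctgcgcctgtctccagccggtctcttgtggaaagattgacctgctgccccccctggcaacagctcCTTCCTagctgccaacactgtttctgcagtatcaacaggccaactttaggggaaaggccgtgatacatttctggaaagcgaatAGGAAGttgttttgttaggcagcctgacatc
ICAM1 (chr9:21015690-21015989, plus strand): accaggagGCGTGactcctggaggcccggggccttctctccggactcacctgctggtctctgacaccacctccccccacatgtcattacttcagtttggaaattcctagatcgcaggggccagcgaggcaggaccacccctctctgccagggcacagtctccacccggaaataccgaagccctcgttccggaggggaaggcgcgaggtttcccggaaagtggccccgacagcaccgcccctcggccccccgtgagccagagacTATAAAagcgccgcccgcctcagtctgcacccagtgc
KDR (chr5:75978406-75978705, minus strand): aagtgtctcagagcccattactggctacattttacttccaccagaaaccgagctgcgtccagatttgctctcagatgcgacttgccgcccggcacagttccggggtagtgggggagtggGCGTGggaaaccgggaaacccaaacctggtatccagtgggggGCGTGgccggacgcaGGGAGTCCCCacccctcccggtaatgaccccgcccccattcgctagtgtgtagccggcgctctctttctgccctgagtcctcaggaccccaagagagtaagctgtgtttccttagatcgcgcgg
FLT1 (chr5:147725962-147726261, minus strand): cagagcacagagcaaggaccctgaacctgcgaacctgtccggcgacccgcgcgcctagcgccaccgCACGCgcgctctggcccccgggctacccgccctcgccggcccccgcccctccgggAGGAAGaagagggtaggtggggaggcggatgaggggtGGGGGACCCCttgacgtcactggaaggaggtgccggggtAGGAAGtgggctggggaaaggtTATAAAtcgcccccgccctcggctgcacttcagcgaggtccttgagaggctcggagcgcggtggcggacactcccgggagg
VEGFA upstream start (chr17:46032328-46032627, minus strand): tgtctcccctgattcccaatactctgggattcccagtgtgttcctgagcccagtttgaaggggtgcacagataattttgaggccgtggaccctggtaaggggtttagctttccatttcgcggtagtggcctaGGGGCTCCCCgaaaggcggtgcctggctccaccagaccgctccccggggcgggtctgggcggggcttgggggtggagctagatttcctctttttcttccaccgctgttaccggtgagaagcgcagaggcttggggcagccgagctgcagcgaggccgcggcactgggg
VEGFA internal start (chr17:46025114-46025413, minus strand): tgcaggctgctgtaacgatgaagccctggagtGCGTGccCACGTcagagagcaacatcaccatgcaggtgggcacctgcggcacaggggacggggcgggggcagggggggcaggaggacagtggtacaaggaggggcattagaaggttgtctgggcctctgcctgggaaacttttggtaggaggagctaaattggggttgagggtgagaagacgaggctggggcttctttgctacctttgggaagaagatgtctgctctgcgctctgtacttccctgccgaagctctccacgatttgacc

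Positions are counted from the annotated start. The SELP window held the ETS core at -64 to -59 on the reverse strand and at 19 to 24 on the forward strand, and no match to the other motifs. In the ICAM1 window there were a hypoxia core at -242 and a TATAAA at 13 to 18, behind the annotated start. KDR and FLT1 each held an NF-κB consensus that matched on both strands at the same position, at -74 to -65 and at -92 to -83, and a hypoxia core, 2 in KDR and 1 in FLT1. FLT1 also had a TATAAA at -31 to -26 and 2 ETS cores. The upstream VEGFA window had an NF-κB consensus at -118 to -109 and no hypoxia core. The internal window, which lies within the gene itself, had 2 hypoxia cores. Among all 32851 promoter windows of 300 bases, 8.46% held the NF-κB consensus, 35.4% the ETS core, 43.8% the hypoxia core and 13.6% the TATA box. Matches are letters in a window and no measured binding sites. Only exact matches were marked, so a window without a mark, as ICAM1 for NF-κB, can still hold a site that departs from the pattern.

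The values are RPKM, reads scaled to exon length and to library size, so that levels can be compared between genes. From the steps that single reads leave in low values, 18.2M to 31.6M reads per mouse (median 21.6M) were estimated on genes. Members held at least an estimated 30 reads in every mouse (SELP, lowest), and 140 or more for the other 9 genes, so counting error was small except for SELP in unimmunized mice. The labelled tissue was matched by its fast fibre genes (ACTA1, CKM, MYLPF, TNNT3, MYH4, MYH1, ATP2A1 and PVALB), which together lay between 6.03e+04 and 1.03e+05 RPKM in all mice, and in EAE-induced mice of day 14 (6.03e+04 to 7.15e+04) below all other mice of that day. Endothelial markers were present at a far lower level: the 20 other endothelial identity genes listed for comparison summed to 195 to 355 RPKM. In whole muscle, fewer endothelial cells and less RNA per cell cannot be told apart.

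Mice differed in the level of long transcripts relative to short ones. A length index was therefore computed for each mouse, the median log2 deviation of 966 genes with more than 6000 exon bases minus that of 1414 genes with fewer than 1500. Replicate 1 of the unimmunized mice (-1.03) and replicates 1 and 5 of the OVA-immunized mice (-0.89 and -0.71) on day 14 stood apart at the low end. The other 27 mice lay between -0.48 and 0.85. Means of the index were -0.38 in Ctrl, -0.19 in OVA and 0.13 in EAE on day 14, and 0.31, 0.17 and -0.07 on day 40. Results are therefore also given with the index as a covariate or without these 3 mice where this changes them, alternatives that were chosen after seeing the data. The index comes from the same expression values, so group differences in long or short genes enter it. Fits with the covariate cannot tell such differences apart from differences between libraries.

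Groups were compared by limma, on log2(RPKM + 0.1), among the genes whose mean exceeded 3 RPKM in 1 or more of the compared groups. Genes were called at a Benjamini-Hochberg adjusted p below 0.05 over all tested genes and a fold change above 1.5. Labels do not say whether mice shared cages or days of handling, so p-values measure the spread between these mice. SELP passed this filter on day 14 only through the OVA-immunized group, where it is high. It was therefore also fitted among all genes with a mean above 0.5 RPKM over the mice of the model, a filter that does not depend on 1 group.

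VEGFA was the most abundant member, with a mean of 51.9 RPKM over the 30 mice. PECAM1 (32.9), CDH5 (21.0) and KDR (17.4) followed, then FLT1 (9.60), TEK (8.44), ICAM1 (6.59), VWF (5.59) and VCAM1 (3.38), and SELP was lowest at 2.06 RPKM. SELP also varied most, with a 20.2-fold range between the lowest and the highest mouse, against 1.82-fold for PECAM1. Neighbours such as FLT1 and TEK or ICAM1 and VWF overlapped widely between mice.

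The junction gene PECAM1 (Entrez gene 18613, chromosome 11 from 106654213 to 106715281) was not called in any comparison of day 14. In RPKM its 5 mice were at 29.7, 26.9, 35.1, 31.2 and 32.0 in Ctrl, at 23.1, 42.0, 36.6, 37.6 and 38.9 in OVA, and at 23.5, 27.4, 36.0, 29.6 and 26.8 in EAE. The groups overlapped through replicate 1 of the OVA-immunized mice, and the other 4 were above every mouse of the other groups. The log2 fold change of EAE-induced against unimmunized mice was -0.12 (95% interval -0.44 to 0.20, limma adjusted p = 0.520). For EAE against OVA it was -0.30 (interval -0.62 to 0.02, limma adjusted p = 0.127, range over 20 alternatives 0.00878 to 0.255). Without replicate 1 of the OVA-immunized mice it was -0.45, and with the length index as a covariate -0.40, both with an adjusted p under 0.05 but less than the fold of 1.5. TEK (Entrez gene 21687, chromosome 4 from 94739086 to 94874976) was at 7.79 ± 1.92, 8.75 ± 2.20 and 8.07 ± 1.07 RPKM in Ctrl, OVA and EAE on day 14 (SD, n = 5 each), with no call.

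CDH5 (Entrez gene 12562, chromosome 8 from 104101613 to 104144504) spread over a wide range within groups on day 14. It was at 8.88, 16.1, 21.8, 18.4 and 25.1 RPKM in Ctrl, at 8.79, 30.3, 29.2, 26.4 and 16.4 in OVA, and at 10.3, 19.3, 20.9, 17.9 and 15.9 in EAE. The lowest mouse of each group was replicate 1, which also had the lowest length index of its group. Against unimmunized mice the log2 fold change was -0.05 (SE 0.33, limma adjusted p = 0.904). With the length index as a covariate it was -0.66 (SE 0.14), which passed the threshold (limma adjusted p = 0.00115; range over 20 alternatives 0.00115 to 0.958). Against OVA-immunized mice it went from -0.30 (limma adjusted p = 0.494) to -0.68 with the covariate, and to -0.80 without the 3 mice of lowest index, each past the threshold (range over 20 alternatives 0.000572 to 0.777).

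KDR (Entrez gene 16542, chromosome 5 from 75932827 to 75979072) was lower in EAE-induced mice on day 14. Unimmunized mice had 13.2, 15.4, 19.5, 19.7 and 20.0 RPKM, OVA-immunized mice 11.2, 28.8, 25.9, 20.1 and 17.9, and EAE-induced mice 7.30, 10.6, 13.9, 11.5 and 9.66. Of the EAE-induced mice, 4 were below every unimmunized mouse. In log2 units EAE differed from Ctrl by -0.74 (SE 0.22, limma adjusted p = 0.0141) and from OVA by -0.92 (SE 0.22, limma adjusted p = 0.00452). It was called in both comparisons under each of the 20 alternatives, at -1.11 and -1.16 with the length index as a covariate.

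FLT1 (Entrez gene 14254, chromosome 5 from 147561604 to 147726438), the other VEGFA receptor, was not called in any comparison of day 14. It was at 5.59, 6.91, 8.85, 9.48 and 10.8 RPKM in Ctrl, 7.07, 14.4, 12.7, 11.2 and 8.63 in OVA, and 7.10, 12.6, 13.4, 10.6 and 8.99 in EAE. The 3 groups overlapped, with log2 fold changes of EAE of 0.34 against Ctrl (limma adjusted p = 0.215) and -0.03 against OVA (limma adjusted p = 0.937, range over 20 alternatives 0.0202 to 0.993). With the length index as a covariate these were -0.06 (limma adjusted p = 0.633) and -0.27 (limma adjusted p = 0.0202), the latter less than the fold of 1.5. The ratio of KDR to FLT1 within a mouse, chosen after these values were seen and so given without a test, was 1.86 to 2.36 in Ctrl and 1.58 to 2.07 in OVA. In EAE-induced mice it was 0.846 to 1.09 on day 14, below every mouse of any other group, and 1.47 to 2.65 on day 40.

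VWF (Entrez gene 22371, chromosome 6 from 125552948 to 125686679) set OVA-immunized and EAE-induced mice apart on day 14. It was at 4.94, 3.92, 5.56, 5.74 and 5.66 RPKM in Ctrl, 4.49, 9.60, 6.90, 8.44 and 10.1 in OVA, and 3.01, 3.91, 6.12, 5.49 and 3.77 in EAE. OVA-immunized mice other than replicate 1 were above all mice of the other groups. The log2 fold change of EAE against OVA was -0.80 (SE 0.22, limma adjusted p = 0.00940), called under all 20 alternatives. Against Ctrl it was -0.24 in EAE (limma adjusted p = 0.379) and 0.56 in OVA (limma adjusted p = 0.407).

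**Figure D1:**
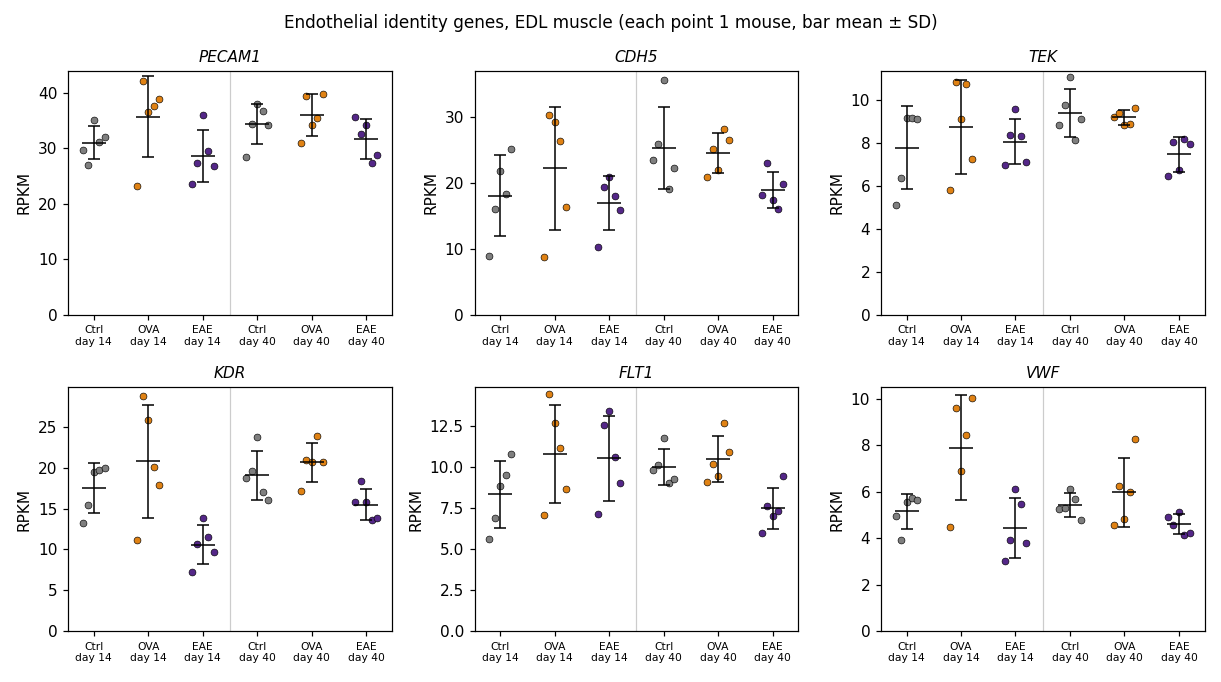
Expression in RPKM (y axis, from 0) of 6 endothelial identity genes in the 6 groups (x axis), each point 1 mouse and bars the mean ± SD of 5 mice. PECAM1 and TEK overlap in all groups on day 14, while KDR in EAE-induced mice lies at 7.30 to 13.9 RPKM and FLT1 does not follow it.

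VEGFA (Entrez gene 22339, chromosome 17 from 46016993 to 46032377) was lower in EAE-induced mice than in both control groups on day 14. It was at 22.0, 44.1, 48.9, 83.4 and 54.5 RPKM in Ctrl, 37.6, 60.6, 56.2, 46.5 and 43.2 in OVA, and 20.4, 21.0, 35.2, 22.8 and 19.6 in EAE. Every EAE-induced mouse was below every OVA-immunized mouse, and the overlap with unimmunized mice came from replicate 1 of that group, the mouse with the lowest length index. Against Ctrl the log2 difference was -0.997 (SE 0.27, limma adjusted p = 0.00670), and against OVA it was -1.05 (SE 0.27, limma adjusted p = 0.00618). Both were called under each of 20 alternatives, with the values between -1.33 and -0.79 against unimmunized and between -1.25 and -0.96 against OVA-immunized mice.

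In all, 2 of the 9 members tested between EAE-induced and unimmunized mice on day 14 were called, both lower, where 26.4% of the 8771 tested genes were called. Against OVA-immunized mice 3 of 10 were called, all lower, beside 20.3% of 8674 genes. Over the tested members, the median log2 fold change was -0.19 and -0.50 in these comparisons, and over all tested genes 0.11 in each. The comparisons share the EAE-induced mice, and the members' shares are close to those of all genes.

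The adhesion gene SELP (Entrez gene 20344, chromosome 1 from 164115264 to 164150026) was the member that rose after immunization. On day 14 it was at 0.372, 0.498, 1.01, 0.793 and 1.02 RPKM in unimmunized mice, at 2.95, 7.52, 3.57, 4.38 and 3.42 in OVA-immunized mice, and at 2.80, 1.53, 3.35, 3.26 and 1.68 in EAE-induced mice. All mice of both immunized groups were above all unimmunized mice, and the 2 immunized groups overlapped. OVA-immunized mice had 5.90 times the mean of unimmunized mice, or 2.41 more on the log2 scale in the wider filter (SE 0.30, limma adjusted p = 0.000780), where 0.250% of 11985 genes were called. None of the other 9 members was called between these groups, beside 0.142% of 8471 genes above 3 RPKM. In the wider filter too, EAE-induced mice were higher by 1.66 on that scale (SE 0.30, limma adjusted p = 0.000524), 3.41 times the mean of unimmunized mice, where 26.1% of 11985 genes were called. It was called under all 19 alternatives in each of the 2 comparisons.

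EAE-induced mice were lower in SELP than OVA-immunized mice by 0.76 on the log2 scale, which missed the threshold (SE 0.31, limma adjusted p = 0.0634). In the wider filter, where 18.9% of genes were called, its adjusted p was 0.0631, and it ranged from 0.0135 to 0.168 over 19 alternatives. It passed with the length index as a covariate (-0.93) and without the 3 mice of lowest index (-1.001). Leaving out replicate 1 of the OVA-immunized mice or replicate 3 of the EAE-induced mice also made it pass (both -0.87), as did a pseudocount of 1 (-0.59), median-of-ratios scaling (-0.80) and a model of all 30 mice (-0.76).

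Platelets also carry P-selectin, and neutrophils bind it. Of 10 platelet markers, GP6 was at 0 in 24 of 30 mice, and the 9 markers other than PF4 were at most 2.22 RPKM in any mouse (GP1BA), so that the summed level was mostly that of PF4, which macrophages also make. The platelet sum was 25.2 to 45.7 RPKM in Ctrl, 18.0 to 42.6 in OVA and 13.1 to 25.1 in EAE on day 14, so that every EAE-induced mouse was just below every unimmunized mouse, and PF4 itself was called lower (-0.75). Neutrophil markers were higher in both immunized groups, as SELP was: the sum of 10 genes was 5.11 to 10.8 RPKM in Ctrl, 66.2 to 231 in OVA and 203 to 395 in EAE on day 14. The higher sum in EAE came from S100A8, at 46.5 RPKM in OVA and 225 in EAE on average (called higher, 2.31). Of the 9 neutrophil markers in the wider filter the other 8 had values below 0 between EAE and OVA (median of the 9 -0.72), none of them called. On day 40 it was 5.65 to 71.6, 15.8 to 34.5 and 7.80 to 55.3 RPKM. Their part in the SELP result was not tested.

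ICAM1 (Entrez gene 15894, chromosome 9 from 21015940 to 21028814) did not follow SELP. On day 14 it was at 4.85, 4.81, 4.93, 9.02 and 6.76 RPKM in Ctrl, 5.08, 8.65, 6.59, 8.20 and 9.87 in OVA, and 5.51, 3.60, 7.47, 5.70 and 4.22 in EAE, with overlap of all groups. The log2 fold changes were 0.34 in OVA (interval -0.13 to 0.82, limma adjusted p = 0.638) and -0.19 in EAE (interval -0.66 to 0.28, limma adjusted p = 0.497) against Ctrl. Between EAE and OVA it was -0.53 (limma adjusted p = 0.0689), which passed without replicate 1 of the OVA-immunized or replicate 3 of the EAE-induced mice (both -0.67) and with the length index as a covariate (-0.59). Over 20 alternatives it ranged from -0.67 to -0.41 (limma adjusted p 0.0177 to 0.183).

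VCAM1 (Entrez gene 22329, chromosome 3 from 116110020 to 116129688) lay at 2.58, 2.78, 2.78, 4.37 and 3.82 RPKM in Ctrl, 2.89, 4.17, 3.35, 3.49 and 3.31 in OVA, and 2.77, 2.15, 3.27, 2.44 and 1.85 in EAE on day 14. EAE-induced mice held the 3 lowest values, and the groups overlapped. The log2 fold change of EAE was -0.46 against OVA (SE 0.18, limma adjusted p = 0.0466), less than the fold of 1.5 that a call requires, and -0.37 against Ctrl (limma adjusted p = 0.0915). In OVA against Ctrl it was 0.09 (interval -0.28 to 0.47, limma adjusted p = 0.874).

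**Figure D2:**
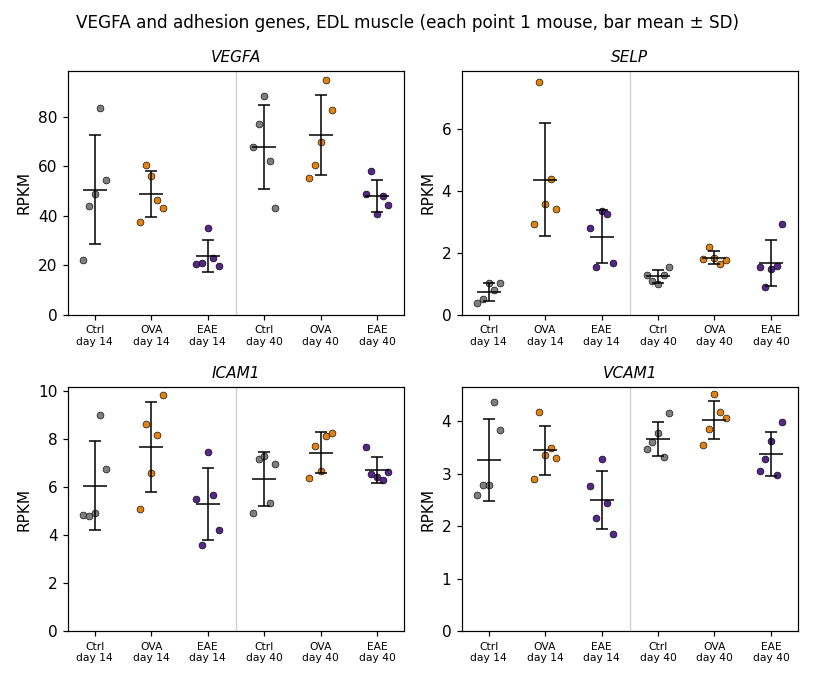
Expression in RPKM (y axis, from 0) of VEGFA and the 3 adhesion genes in the 6 groups (x axis), each point 1 mouse and bars the mean ± SD of 5 mice. SELP is at 1.53 to 7.52 RPKM in all immunized mice on day 14 and at 1.02 or below in unimmunized mice, while ICAM1 and VCAM1 overlap between the groups of that day.

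To set the adhesion genes against an identity gene of the same muscle, each was divided by PECAM1 within the mouse. On the log2 scale the SELP to PECAM1 ratio was -5.29 ± 0.46 in unimmunized, -3.05 ± 0.39 in OVA-immunized and -3.51 ± 0.47 in EAE-induced mice on day 14 (SD, n = 5 each). The differences from unimmunized mice, 2.23 and 1.78, had the smallest p that the two-sided exact permutation test of 5 against 5 mice allows (0.00794). Adjusted over all 18 ratio tests the exact permutation p was 0.0714 for both, so 0 of 18 passed, and 3 were under an unadjusted p of 0.05. For ICAM1 the ratio was -2.37 ± 0.39, -2.21 ± 0.18 and -2.44 ± 0.32, and for VCAM1 -3.23 ± 0.33, -3.32 ± 0.21 and -3.48 ± 0.28, in the same order. On day 14 these ratios differed by at most 0.25 between groups (exact permutation p of 0.222 and above). With this smallest p and 18 tests, 2 ratios at the floor cannot pass, so the adjusted count says nothing about stability.

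**Figure D3:**
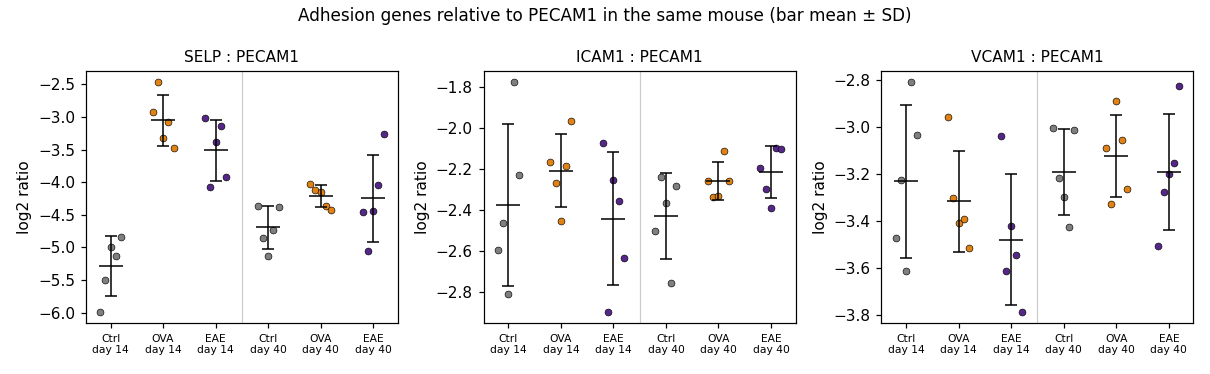
Log2 ratio (y axis) of SELP, ICAM1 and VCAM1 to PECAM1 within each mouse in the 6 groups (x axis), each point 1 mouse and bars the mean ± SD of 5 mice. On day 14 the SELP ratio of all immunized mice lies above that of all unimmunized mice, and the other ratios overlap.

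Other endothelial identity genes were also mostly lower in EAE-induced mice on day 14. Of the 20 tested against unimmunized mice, 8 were called lower and 1 higher, with a median log2 fold change of -0.45 beside 0.11 over all tested genes, of which 26.4% were called. CD34 (-0.97), which is not confined to endothelial cells, ICAM2 (-0.86) and EGFL7 (-0.74) fell most. The receptor S1PR1, which steadies endothelial junctions, rose by 1.00. Against OVA-immunized mice, where 20.3% of all tested genes were called, 6 of 19 were called lower and 0 higher (median -0.45), among them ICAM2 (-0.91) and SOX18 (-0.75), an endothelial transcription factor. Of 7 genes of capillary lipid uptake, TCF15 (-0.81) was called lower against Ctrl, and GPIHBP1 (-0.75) and FABP4 (-0.60) against OVA.

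Genes of the VEGF and angiopoietin axis other than VEGFA are read against the same shares of all genes, 26.4% against Ctrl and 20.3% against OVA. Of its 14 listed genes, 6 were tested against unimmunized mice, all of them below 0, and 4 were called lower. The apelin receptor APLNR fell by 2.06, the endothelial Notch ligand DLL4 by 1.12, VEGFB by 1.11 and PDGFB, which recruits pericytes, by 0.71 on the log2 scale. Against OVA-immunized mice 5 of 7 were called lower, with APLNR at -1.59, VEGFB at -1.19, DLL4 at -1.04 and ANGPT1, the ligand of TEK, at -0.72. Hypoxia-inducible genes did not share a direction: against unimmunized mice 2 of 10 were called higher (EGLN3 0.89, BNIP3 0.68) and 2 lower (ANKRD37 -1.03, EGLN1 -0.62).

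Leukocyte recruitment genes were largely below the expression filter. Of 17 listed, 7 passed the expression filter, and limma called 0 of 7 against unimmunized mice in EAE and in OVA on day 14, beside 26.4% and 0.142% of all tested genes. SELE (E-selectin), named after its values were seen, was below that filter, at 0.125 ± 0.0776 RPKM in Ctrl, 0.952 ± 0.515 in OVA and 0.933 ± 0.522 in EAE (SD, n = 5 each). It passed the wider filter only through the immunized groups, where it is high, so no test is given for it. Its log2 fold changes there were 2.18 in OVA and 2.10 in EAE, from an unimmunized level close to the pseudocount of 0.1. Against OVA-immunized mice, CXCL12 (-0.68) and LRG1 (-0.63) were called lower in EAE. Of the leukocyte ligands, ITGB7 (-1.75) and ITGB2 (-0.94), integrin chains that bind VCAM1 and ICAM1 through their partners, were called lower in EAE against Ctrl, and ITGB1 (0.62), which is not confined to leukocytes, higher.

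Markers of other cell types also differed on day 14. The sum of 8 fibroblast markers was 1.03e+03 to 1.53e+03 RPKM in Ctrl and 349 to 557 in EAE, and that of 10 macrophage markers 181 to 293 and 89.7 to 168. Satellite cell markers were at 42.8 to 52.6 and 77.9 to 89.9 RPKM, with MUSK, a gene that fibres also express, up by 3.43 on the log2 scale. Erythrocyte markers were at 189 to 684 RPKM in Ctrl, 475 to 1.59e+03 in OVA and 26.5 to 189 in EAE. Sums of pericyte and smooth muscle markers (145 to 210, and 179 to 209) and lymphatic markers (8.46 to 9.63, and 8.91 to 15.6) overlapped between Ctrl and EAE. Their part in the results on endothelial genes was not tested.

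On day 40 none of the members was called by limma in any comparison. EAE-induced mice had values below unimmunized mice in 8 of 9 tested members (median log2 fold change -0.29, and -0.05 over all 8691 tested genes, of which 0.460% were called). The largest differences by p were those of FLT1, at -0.42 (SE 0.11, limma adjusted p = 0.0561), and TEK, at -0.32 (SE 0.09, limma adjusted p = 0.0575). Values of FLT1 were 9.82, 10.1, 11.8, 9.03 and 9.23 RPKM in Ctrl and 5.99, 7.64, 6.99, 7.34 and 9.42 in EAE, where 4 of 5 mice were below all unimmunized mice. VEGFA was at 67.7 ± 17.0 in Ctrl, 72.6 ± 16.1 in OVA and 48.0 ± 6.48 RPKM in EAE (SD, n = 5 each; limma adjusted p = 0.111 and 0.121). With an unadjusted p under 0.05 there were 5 of 9 members against unimmunized and 7 of 9 against OVA-immunized mice, beside 27.9% and 17.4% of all tested genes. The latter comparison called 0.209% of 8598 genes, had all 9 members below 0 (median -0.34, over all genes -0.04), and every EAE-induced mouse below every OVA-immunized mouse in TEK. With the length index as a covariate the FLT1 and TEK differences against Ctrl were -0.24 and -0.15. In the lists of other endothelial, angiogenic and recruitment genes limma called 0 genes in any comparison of day 40.

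OVA-immunized and unimmunized mice on day 40 differed by at most 0.24 on the log2 scale in the 9 tested members (ICAM1), none of them with an unadjusted p under 0.05. Here limma called 0% of 8706 genes, and 272 had an unadjusted p under 0.05. SELP, in the wider filter, was at 1.29, 1.09, 0.988, 1.28 and 1.56 RPKM in Ctrl, 1.80, 2.19, 1.83, 1.62 and 1.76 in OVA, and 1.53, 0.882, 1.48, 1.57 and 2.92 in EAE on day 40. All OVA-immunized mice were still above all unimmunized mice, by a log2 fold change of 0.54 (unadjusted p = 0.0211, limma adjusted p = 0.999). The EAE-induced mice overlapped both groups (0.33 and -0.22). In this filter 0.468% of 12183 genes were called between EAE and Ctrl, 0.0903% between EAE and OVA and 0% between OVA and Ctrl.

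**Figure D4:**
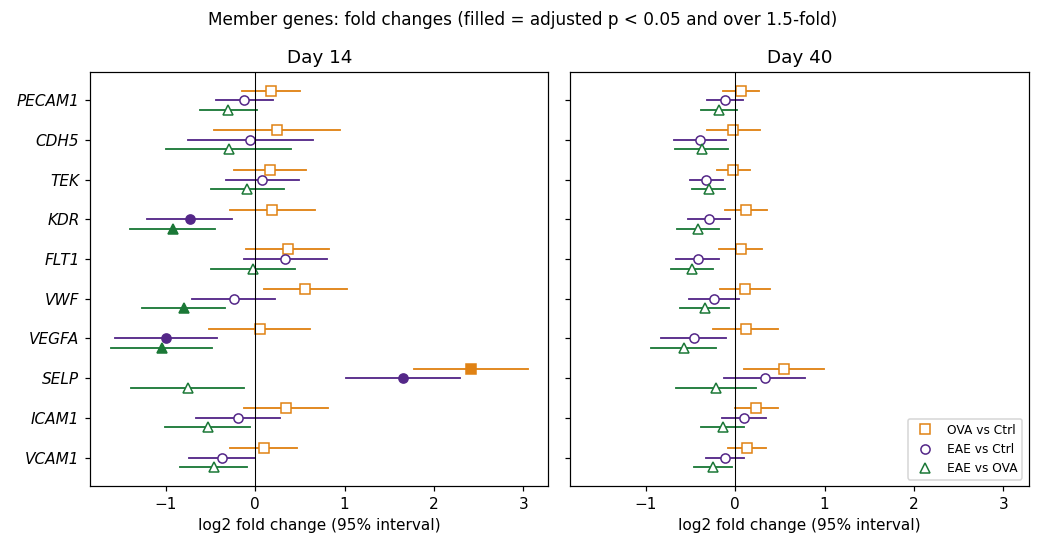
Log2 fold changes (x axis) of the 10 members (y axis) with 95% intervals on day 14 and day 40, for OVA against Ctrl (squares), EAE against Ctrl (circles) and EAE against OVA (triangles). Filled symbols passed the call: SELP (2.41 and 1.66), KDR, VWF and VEGFA on day 14 and none on day 40. SELP is from the wider filter.

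Whether a group effect differed between day 14 and day 40 was tested with an interaction term, fitted to all 30 mice. For EAE against Ctrl, FLT1 was called among 9 tested members, at -0.76 (SE 0.26, limma adjusted p = 0.0170), beside 32.7% of 9013 genes: it was 0.34 on day 14 and -0.42 on day 40. This call was lost with the length index as a covariate (-0.13, limma adjusted p = 0.493, range over 28 alternatives 0.00499 to 0.493), in which the KDR (1.01), VEGFA (1.08) and CDH5 (0.62) differences passed instead. SELP differed by -1.33 in the wider filter (SE 0.39, limma adjusted p = 0.00745), beside 30.6% of 12098 genes, and by -0.995 with the covariate (limma adjusted p = 0.0651, range over 27 alternatives 0.00188 to 0.0651). The SELP mean went from 2.52 RPKM on day 14 to 1.68 on day 40 in EAE-induced mice. In unimmunized mice it went from 0.739 to 1.24, so both groups entered this difference. Scaling by the median of ratios moved the median of all genes in this interaction from -0.15 to -0.02, and FLT1 stayed called. The VEGFA difference, 0.53 in the model of all mice, passed at 0.80 without replicate 1 of the unimmunized mice on day 14.

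For EAE against OVA, limma called 0 of 10 members in the interaction, and 0 had an unadjusted p under 0.05, where 21.8% of 8935 genes were called and 45.3% had an unadjusted p under 0.05. KDR was at 0.51 (limma adjusted p = 0.130, range over 28 alternatives 0.000273 to 0.248). It passed under median-of-ratios scaling (0.62), with the length index as a covariate (0.87), without the 3 mice of lowest index (0.83) and without replicate 1 of the OVA-immunized mice on day 14 (0.71). For OVA against Ctrl, 0 of 10 members and 0% of 8848 genes were called, while 1 member and 823 genes had an unadjusted p under 0.05. That member was SELP, at -1.87 in the wider filter (SE 0.39, unadjusted p = 3.99e-05, limma adjusted p = 0.0644), where 0% of 12098 genes were called. It passed there under median-of-ratios scaling (-1.87, limma adjusted p = 0.0422).

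Between the days, within a group and between different mice, EAE-induced mice had more VEGFA on day 40 (log2 fold change 1.04, SE 0.24, limma adjusted p = 0.000743), the only 1 of 9 members called, where 21.1% of 8709 genes were. KDR (0.57, limma adjusted p = 0.0128), VCAM1 (0.44, limma adjusted p = 0.0112) and FLT1 (-0.47, limma adjusted p = 0.0356) had smaller differences than the fold of 1.5. Leaving out single EAE-induced mice brought KDR past it 4 times (0.60 to 0.67) and FLT1 once (-0.60). In OVA-immunized mice SELP fell by 1.13 on the log2 scale in the wider filter (SE 0.27, limma adjusted p = 0.00844), where 4.71% of 12098 genes were called. None of the other 9 members was called there, beside 3.97% of 8648 genes above 3 RPKM. In unimmunized mice limma called 0 of 9 members, where 9.37% of 8788 genes were called, and VEGFA (0.50) alone had an unadjusted p under 0.05; it passed at 0.71 without replicate 4 of day 14. SELP passed in the wider filter (0.74, limma adjusted p = 0.0447), where 9.71% of genes did, but not under most alternatives, a pseudocount of 1 (0.38) among them. The day is also the day of tissue collection, so age and collection cannot be told apart from it.

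The length index accompanied some members far more than others. Across the 30 mice, Pearson's r was 0.81 for CDH5 (Spearman's rho 0.68), 0.80 for TEK (rho 0.60) and 0.76 for FLT1 (rho 0.78). In permutation tests of 10 members their adjusted p was 3.33e-05 for r, from the smallest p that these permutations can give (1e-05), and at most 0.00153 for rho. Without the 2 mice farthest from the median index r was 0.68, 0.67 and 0.69. For KDR r was 0.38 (rho 0.39, permutation adjusted p = 0.0993 and 0.0865), and its deviations from group means followed the index with r = 0.79, beside 0.90 for CDH5, 0.88 for FLT1 and 0.84 for TEK. For VEGFA, PECAM1, VCAM1, SELP, VWF and ICAM1 r was 0.12 to 0.35 and rho 0.14 to 0.35 (permutation adjusted p of 0.116 and above). For deviations from group means r was 0.58 for VEGFA, and from 0.21 (ICAM1) to 0.38 (PECAM1) for the rest of these. Exon length alone did not order the members, since FLT1 has 10961 exon bases, CDH5 3995 and TEK 4702, and VWF, which followed the index less (r = 0.13), 8834.

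**Figure D5:**
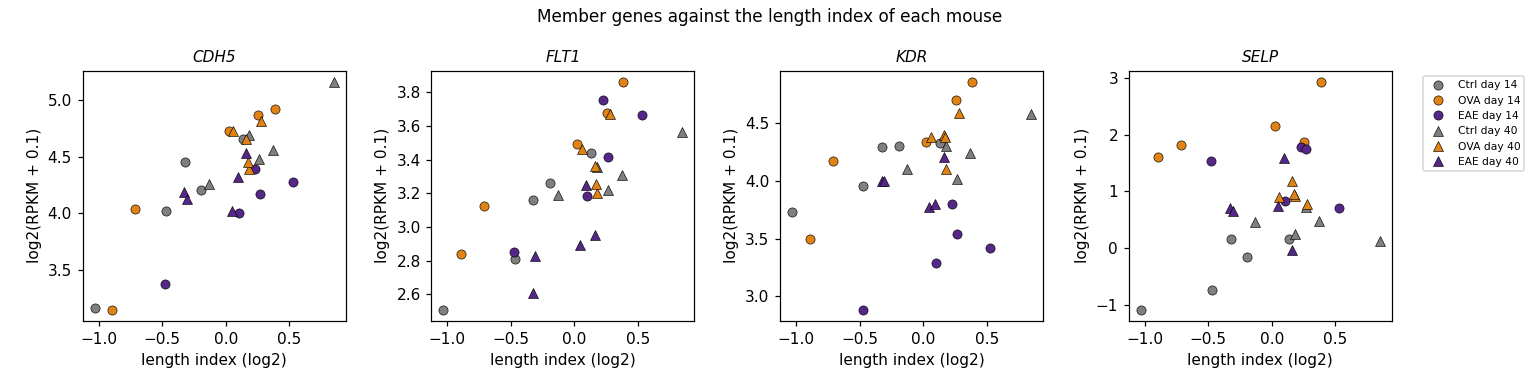
Log2(RPKM + 0.1) of CDH5, FLT1, KDR and SELP (y axis) against the length index of each mouse (x axis, log2), each point 1 of 30 mice, circles for day 14 and triangles for day 40. CDH5 and FLT1 rise with the index (r = 0.81 and 0.76), KDR of EAE-induced mice on day 14 lies below the other mice at the same index, and SELP follows it less (r = 0.20).

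Members varied together to different degrees, as a description over the 30 mice, which share group differences and the length index. The closest pairs were CDH5 with TEK (r = 0.88, and 0.88 within groups), KDR with VEGFA (0.85, within groups 0.72), FLT1 with TEK (0.83, within groups 0.86) and PECAM1 with VWF (0.83, within groups 0.87). KDR and FLT1 had r = 0.47 over all mice and 0.83 within groups. Among the adhesion genes ICAM1 and VCAM1 went together (0.76, within groups 0.74), and SELP had at most 0.48 with any member (FLT1), but 0.64 with VCAM1 and 0.54 with TEK within groups. Of 9049 genes, those most like PECAM1 were ENG, MYH9 and MMRN2 (0.84 to 0.85), with ENG and MMRN2 endothelial genes as well. Most like TEK were FGD5, JAM2 and SPTBN1 (0.91 to 0.92), most like CDH5 SPTBN1, 9430020K01RIK and TRAK2 (0.93 to 0.95), and most like KDR CCND2, AKAP1 and PPP1R16B (0.92 to 0.93). For FLT1 they were CASKIN2, CYYR1 and ITPKB (0.87 to 0.90), for VWF MYLK, PECAM1 and ENG (0.82 to 0.85), and for VEGFA FBXL12, AGRN and ASB14 (0.90).

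The adhesion genes had other company. Most like SELP were the neutrophil markers NGP (0.84) and S100A9 (0.84), then ADAMTS8 (0.76), and within groups these fell to 0.41, 0.38 and 0.58. Most like VCAM1 were CASP4 (0.88), MPEG1 (0.87) and PTPRC (0.87), of which MPEG1 and PTPRC are leukocyte genes, with 0.75 to 0.81 within groups. Most like ICAM1 were MCAM (0.81), a gene of vessel wall cells, C1S1 (0.79) and FAM111A (0.79), with 0.75 to 0.85 within groups.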

How the data were processed

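Poly(A) RNA-Seq of EDL muscle was available for 30 mice. Per the labels and the study's methods, the authors aligned reads with Subread to mm10, counted them on RefSeq genes with featureCounts and computed RPKM; versions are not given in the sources used here. The deposited table of 21073 genes holds log2(RPKM + 1) values, a scale settled from the values, with 0.0001 where a gene had no read, and was converted back to RPKM. limma 3.58.1 in R 4.3.3 (lmFit, eBayes with trend) was run on log2(RPKM + 0.1) over all genes above the filter, with the 15 mice of a day for comparisons of groups and all 30 for interactions and days. The pseudocount understates changes of low genes. Ratios were tested with exact permutation tests (scipy 1.17.1). Alternatives were another filter, pseudocount, scaling and model, a replicate block, leaving out each mouse, and the length index. The model code was tested on simulated data.

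Members and gene lists were chosen with earlier results of these data known. Named beside the members are called genes of the lists with the largest changes (up to 4 a list and comparison), markers that check a cell type, and the 3 genes most correlated with each member. SELE and the KDR to FLT1 ratio were chosen after their values were seen. FIGF and HBB-BT had no row under these symbols. Depth was estimated from the steps of low values; it limits only the rarest genes.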

Additional observations from a re-analysis of the deposited data

Results flagged for a closer look

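Of the 60 sets of 5 mice (10 genes in 6 groups), 3 held a mouse far from the other 4 by Dixon's criterion, and chance gives about 1 in 20. PECAM1 was at 23.1 RPKM in replicate 1 of the OVA-immunized mice on day 14, where the others were at 36.6 to 42.0; this mouse also had a length index of -0.89. VEGFA was at 35.2 RPKM in replicate 3 of the EAE-induced mice on day 14, where the others were at 19.6 to 22.8. ICAM1 was at 7.69 RPKM in replicate 1 of the EAE-induced mice on day 40, where the others were at 6.29 to 6.63.

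The effect of EAE against unimmunized mice differed between the days, tested as an interaction, for FLT1 (-0.76 on the log2 scale) and SELP (-1.33). With the length index as a covariate the FLT1 difference was -0.13, and that of SELP -0.995 (limma adjusted p = 0.493 and 0.0651).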

How the results depend on the processing

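Over all members, comparisons and alternatives, 2514 fold changes kept their side of the threshold, 38 gained a call and 14 lost one. The 2514 include fold changes that changed sign without a call in either fit, such as FLT1 in EAE against Ctrl on day 14. In 1 case the sign changed with a call: the CDH5 interaction of EAE against Ctrl, -0.34, was 0.62 with the length index as a covariate. The number of members called on day 14 between EAE and OVA, 3, was 6 with this covariate and 5 without the 3 mice of lowest index. For the interaction of EAE against Ctrl it was 1, and 2 with the filter at 0.5 RPKM, 3 with the covariate and 2 without the 3 mice. For the interaction of EAE against OVA it was 0, and 1 with median-of-ratios scaling, 2 with the covariate and 1 without the 3 mice. For day 40 against day 14 it was 0 in Ctrl and 1 with the filter at 0.5 RPKM, and in EAE 1, and 2 with median-of-ratios scaling, 4 with no fold threshold and 2 with the covariate.

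Leaving out 1 mouse at a time gave 2 to 2 calls for EAE against Ctrl, 3 to 5 for EAE against OVA and 1 to 1 for OVA against Ctrl on day 14, and 0 to 0 in each comparison on day 40. For the interactions it gave 1 to 2, 0 to 2 and 0 to 0 in the same order, for the days 0 to 1 in Ctrl, 1 to 1 in OVA and 1 to 2 in EAE, and for the ratios 0 to 0, where the smallest possible p leaves no room for a call of 2 ratios. The 5 calls for EAE against OVA came without replicate 1 of the OVA-immunized or replicate 3 of the EAE-induced mice. The cause of these changes was not tested.

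Groups share replicate numbers, and the deviations of same-numbered mice correlated between -0.71 and 0.69. Replicate 1 of day 14 correlated positively in each pair of groups: 0.50 for EAE and Ctrl, 0.69 for EAE and OVA, and 0.61 for OVA and Ctrl. That replicate also had the lowest length index of its group. Replicate 4 of day 14 was also positive in each pair (0.06 for EAE and Ctrl, 0.24 for EAE and OVA, 0.11 for OVA and Ctrl). EAE and OVA of day 14 correlated positively at every replicate number (0.02 to 0.69). Elsewhere both signs occurred. Labels do not say whether same-numbered mice share more than a number. With the replicate block the counts were 2, 3 and 1 on day 14 and 0, 0 and 0 on day 40, 1, 0 and 0 for the interactions and 0, 1 and 1 for the days, and no member's call changed. In the interaction of EAE against Ctrl, 1059 genes were called higher and 1888 lower, and 1426 and 1355 under median-of-ratios scaling, where the median of all genes went from -0.15 to -0.02.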
